A study of Neurospora crassa with 12 samples.

Results

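NKL2 is a strain of the filamentous fungus Neurospora crassa that lacks LGIIK9het25, a block of constitutive heterochromatin placed by its name on linkage group II. Transcript levels in its mycelium were compared with those in the wild-type strain N150 (WT). The libraries were chosen by the strain in their titles, 4 of NKL2 and 4 of WT, and make up 8 of the 12 libraries in the series. The other 4 come from strain N3944, which lacks dim-5, and are used here where a gene's level in the deletion strain is set beside the loss of that methyltransferase.

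WT carries the label mat A, NKL2 is labelled mat A with the genotype ΔLGIIK9het25::hph, and N3944 is labelled mat x with Δdim-5::bar+. All strains were grown as asexual hyphae in shaken Vogel's minimal medium, with 1.5% sucrose, at 32 °C for 16 h, and polyadenylated RNA was sequenced in single reads. Each genotype is represented by a single strain, so the deletion, its hygromycin resistance marker hph and any other difference of strain NKL2 from N150 cannot be told apart. The labels do not say that the replicate libraries came from separate cultures, and the p-values therefore measure the spread between these libraries, which may be technical.

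Constitutive heterochromatin in Neurospora forms over AT-rich, repeat-derived DNA. The histone methyltransferase DIM-5 places trimethylation on lysine 9 of histone H3 there, heterochromatin protein 1 (HPO) binds that mark, and the DNA methyltransferase DIM-2 is recruited through HPO. Heterochromatic blocks contact each other in the nucleus, and loss of a block can therefore be asked about far from the block itself. The comparison addresses which transcripts change when 1 such region is removed while the methyltransferase remains.

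Reads counted in genes numbered 7164944 to 16039760 per library. Entries for reads that fell outside genes made up 5.17% to 36.8% of a library, and the highest shares were in replicate 2 of WT (36.8%) and replicate 2 of the deletion strain (31.8%). Across genes, Pearson's r of log2 levels ran from 0.954 to 0.979 within WT, from 0.959 to 0.989 within the deletion strain and from 0.935 to 0.967 between them. Between 8954 and 9174 genes had at least 1 count in a WT library and between 9191 and 9323 in a deletion library. After every library was thinned to 7164944 counts, the ranges were 8954 to 9068 and 9081 to 9155, still without overlap.

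The labels were first read against markers. The hyphal markers hex-1, which encodes the Woronin body protein, and so, which acts in hyphal fusion, were the 2 of 7 found by symbol, and neither was called. Levels are in CPM, which is a gene's count relative to the scaled total of its library. Those of hex-1 were 6796, 5610, 4691 and 5858 in WT replicates 1 to 4 and 8030, 3601, 5446 and 4953 in the deletion strain (log2 fold change -0.06, adjusted p = 0.943). The direction of hex-1 turned without WT replicate 1 or deletion replicate 2. The methyltransferase gene dim-5 was at a mean of 7.29 CPM in WT and 7.21 CPM in the deletion strain (log2 fold change -0.02, SE 0.279, adjusted p = 0.985).

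The deleted region itself could not be read from the gene counts. Of the 1028 genes listed on linkage group II, 18 had 0 counts in all 4 deletion libraries, and 11 of these also had 0 in WT. The highest WT total among the 18 was 8 counts over 4 libraries. No gene therefore stood out as present in WT and missing from the deletion strain.

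The deletion strain differed from WT mainly by rises of weakly expressed genes. In edgeR's quasi-likelihood test 367 of 8496 tested genes (4.32%) were called at a Benjamini-Hochberg adjusted p under 0.05, with 262 (3.08%) higher and 105 (1.24%) lower. The rises were also the larger changes, with a median log2 fold change of 2.47 and quartiles of 1.68 and 3.55, against a median of -1.08 and quartiles of -1.33 and -0.78 for the falls. The median over all tested genes was -0.01. At least 4-fold changes were found for 171 rises and 9 falls, and at least 16-fold changes for 52 rises and 0 falls.

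The counts of calls depended on single libraries. In place of 367 calls there were 216 without WT replicate 4, 221 without deletion replicate 3 and 244 without deletion replicate 4. Falls, 105 with all libraries, numbered 55 without WT replicate 3, 37 without WT replicate 4, and 68, 33 and 37 when deletion replicate 1, 3 or 4 was left out. They numbered 119 without deletion replicate 2 and 136 without replicate 2 of both strains, where rises were 169 and made up 55.4% of calls, against 71.4% with all libraries. With any 1 library left out, rises numbered 177 to 256.

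Libraries of WT and the deletion strain did not overlap for 988 tested genes (11.6%), with the deletion strain above WT for 550 of them and below for 438. Among called genes, 254 of the 262 rises and 97 of the 105 falls were without overlap.

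The level of a gene in WT went with the direction of its change. Of 553 tested genes with a WT mean under 1 CPM, 111 (20.1%) were called higher and 0 lower. From 1 to 10 CPM 110 of 1756 rose and 14 fell, from 10 to 100 CPM 36 of 4406 rose and 66 fell, and over 100 CPM 5 of 1781 rose and 25 fell. Sorting on WT favours rises at low WT levels, because a gene low in WT can pass the filter through higher counts in another strain. Sorted by the mean over all 12 libraries instead, rises numbered 21 of 300 genes under 1 CPM, 141 of 1840 (7.66%) from 1 to 10, 89 of 4581 (1.94%) from 10 to 100 and 11 of 1775 (0.620%) over 100. Falls by the same sorting numbered 0, 17, 69 and 19. In bulk RNA of this kind, fewer cells of a type and less RNA per cell cannot be told apart.

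**Figure D1:**
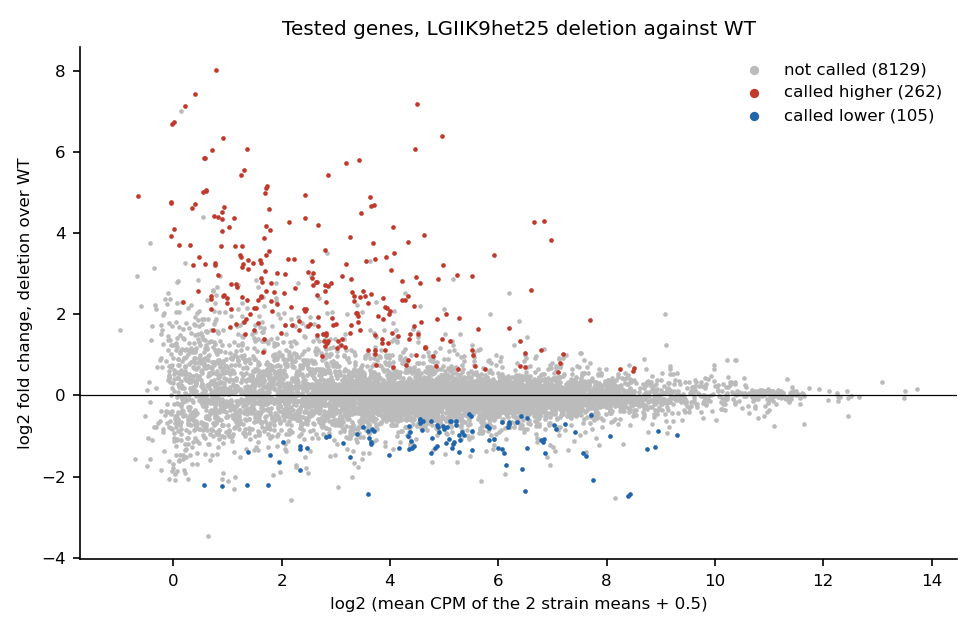
Each point is 1 of the 8496 tested genes, with the log2 of its mean level (mean of the WT and deletion strain means, CPM + 0.5) on the x axis and its fitted log2 fold change, deletion over WT, on the y axis. The 262 genes called higher lie mostly at low levels and reach far above the line of no change, whereas the 105 called lower lie closer to it.

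A fixed rule named the 15 largest rises and 10 largest falls among called genes whose mean over all 12 libraries reached 5 CPM and whose strains did not overlap, which 142 rises and 90 falls met. The 15 rises had log2 fold changes from 3.89 to 7.17 (adjusted p from 9.53e-06 to 0.00577), and 11 of them had a WT mean under 1 CPM. None of the 25 has a symbol of its own in the RefSeq gene table, so they are given by identifier and without a role.

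NCU07433, on linkage group I, rose most. Its levels were 0.702, 0.293, 0.147 and 0 CPM in WT replicates 1 to 4 and 48.8, 37.6, 39.9 and 50.5 CPM in the deletion strain. The lowest deletion library was thus far above the highest WT library (log2 fold change 7.17, SE 0.476, adjusted p = 9.53e-06). In the dim-5 deletion its mean was 1.96 CPM, which was lower than in the region deletion (adjusted p = 4.28e-06 in the direct test between the mutants).

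NCU09147, on linkage group III, stood at 1.58, 0.146, 0.810 and 0 CPM in WT and at 51.3, 44.7, 73.4 and 72.9 CPM in the deletion strain (log2 fold change 6.40, adjusted p = 4.88e-05). NCU08969, on linkage group V, stood at 0.526, 0.439, 1.03 and 0.362 CPM in WT and at 49.2, 45.7, 34.9 and 41.0 CPM in the deletion strain (log2 fold change 6.07, SE 0.601, adjusted p = 8.68e-05). Its mean in the dim-5 deletion was 0.713 CPM, close to that of WT (0.590 CPM), and the mutants differed by -5.90 on the log2 scale (adjusted p = 1.72e-05). NCU08969 was therefore raised in the region deletion without a like level in the strain that lacks the methyltransferase.

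NCU04547, on linkage group VII, had 0.263, 0.146, 0.221 and 0.846 CPM in WT and 20.0, 14.9, 17.7 and 28.7 CPM in the deletion strain (log2 fold change 5.80, adjusted p = 1.18e-05). NCU08570, on linkage group III, had 0.175, 0.146, 0.221 and 0 CPM in WT and 6.04, 5.96, 4.59 and 5.12 CPM in the deletion strain (log2 fold change 5.12, adjusted p = 1.87e-05). It was the 1 gene among the 15 with a higher level in the dim-5 deletion than in the region deletion, with means of 12.8 and 5.43 CPM (direct difference 1.24 on the log2 scale, adjusted p = 0.00922).

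Among the 15, NCU01496 was the 1 on linkage group II. It was steady in WT at 2.54, 3.22, 2.95 and 3.02 CPM and stood at 50.4, 21.4, 54.7 and 55.5 CPM in the deletion strain, where replicate 2 was the lowest (log2 fold change 3.96, SE 0.308, adjusted p = 1.69e-05). NCU01849 was the most abundant of the 15, with 15.4, 10.8, 9.50 and 8.58 CPM in WT and 330, 65.1, 238 and 233 CPM in the deletion strain (log2 fold change 4.29, SE 0.410, adjusted p = 6.51e-05). Replicate 2 of the deletion strain was again the lowest of its strain.

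The deletion libraries were less even for NCU04030 and NCU02880. NCU04030 had 0, 0.439, 0.0737 and 0.846 CPM in WT and 3.30, 18.4, 26.4 and 4.14 CPM in the deletion strain (adjusted p = 0.00577, and 0.0800 in limma-voom). NCU02880 had 2.98, 1.02, 1.18 and 1.57 CPM in WT and 29.3, 3.09, 52.2 and 38.6 CPM in the deletion strain (adjusted p = 0.00390, and 0.116 in limma-voom). For NCU02880 deletion replicate 2 lay just above WT replicate 1.

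The remaining 6 of the 15 rose from WT means of 0.336 to 1.05 CPM to deletion means of 16.9 to 24 CPM. They were NCU02593 and NCU10470 on linkage group I, NCU00118 on III, and NCU09046, NCU12025 and NCU17257 on VII. Against WT, the dim-5 deletion was itself called higher for each of the 15 except NCU08969, NCU12025 and NCU02880. Their adjusted p in that comparison was 0.896, 0.0511 and 0.0858. Between the mutants, 13 of the 15 were called lower in the dim-5 deletion than in the region deletion, 1 was called higher and 1 was not called. That test calls 16.7% of all tested genes. It shares the region deletion libraries for whose high values the 15 were chosen, which favours lower levels in the dim-5 deletion.

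**Figure D2:**
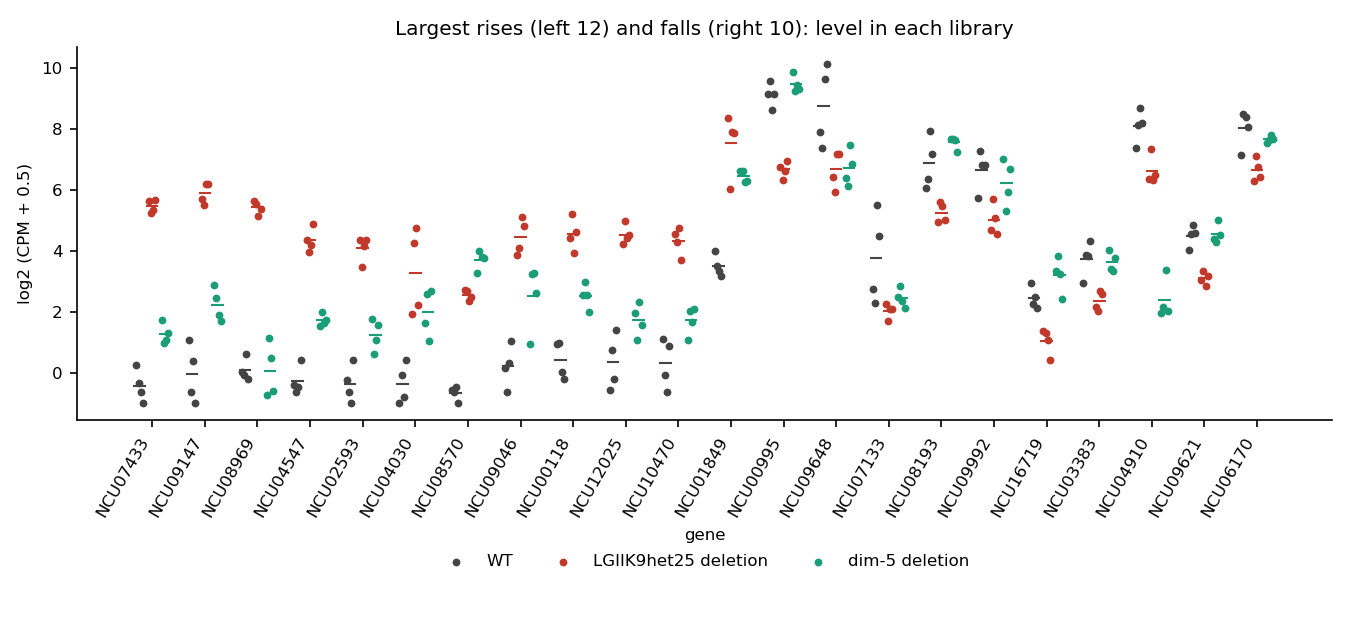
Points are libraries of WT, the LGIIK9het25 deletion and the dim-5 deletion for the 12 largest rises (left) and the 10 largest falls (right) named by the rule, on a y axis of log2 (CPM + 0.5), and short lines are means of the log values. The deletion libraries lie above all WT libraries for the rises and below them for the falls, and for most of the rises the dim-5 deletion lies in between.

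The 10 falls were smaller, with log2 fold changes from -2.48 to -1.43 (adjusted p from 4.87e-05 to 0.0364), and their WT means ran from 5.08 to 580 CPM. NCU00995, on linkage group I, fell from 565, 766, 393 and 564 CPM in WT to 107, 80.1, 98.8 and 124 CPM in the deletion strain (log2 fold change -2.48, SE 0.225, adjusted p = 4.87e-05). The strains were far apart in every library. In the dim-5 deletion the mean of NCU00995 was 715 CPM, above the region deletion (adjusted p = 3.17e-06).

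The falls on linkage group II were NCU09621 and NCU03383. NCU09621 went from 15.9, 22.7, 28.1 and 23.4 CPM in WT to 7.74, 9.71, 6.67 and 8.50 CPM in the deletion strain (log2 fold change -1.47, SE 0.224, adjusted p = 0.00230). NCU03383 went from 7.11, 13.9, 13.7 and 19.4 CPM to 3.95, 3.53, 5.88 and 5.49 CPM (log2 fold change -1.51, adjusted p = 0.0131, and 0.0631 without replicate 2 of both strains). Both were higher in the dim-5 deletion than in the region deletion (adjusted p = 0.000474 and 0.00884).

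NCU08193 went from 66.0, 81.4, 245 and 144 CPM in WT to 30.1, 47.8, 43.5 and 31.4 CPM in the deletion strain (log2 fold change -1.81, adjusted p = 0.00882), and NCU06170 from 141, 357, 339 and 265 CPM to 77.2, 139, 107 and 85.5 CPM (log2 fold change -1.43, adjusted p = 0.00694). For NCU06170 the highest deletion library was just under the lowest WT library. Between the mutants, 7 of the 10 falls were called higher in the dim-5 deletion, 1 was called lower and 2 were not called. That test calls 16.7% of all tested genes, and it shares the region deletion libraries for whose low values the falls were chosen. The 1 called lower was NCU04910, with 167, 277, 412 and 294 CPM in WT, 81.1, 161, 79.5 and 89.1 CPM in the region deletion and a mean of 5.19 CPM in the dim-5 deletion.

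The calls of several falls were lost when single libraries of either strain were left out. NCU09648 had 239, 167, 792 and 1122 CPM in WT and 85.7, 59.8, 143 and 145 CPM in the deletion strain (log2 fold change -2.42, adjusted p = 0.0264), and its call was lost without WT replicate 3 or 4 or any 1 deletion library (highest adjusted p 0.0824). NCU07133 had 6.14, 4.39, 45.3 and 21.9 CPM in WT against 4.27, 2.76, 3.73 and 3.76 CPM, and was likewise lost without WT replicate 3 or 4 or deletion replicate 1, 2, 3 or 4 (adjusted p = 0.0342 with all libraries, at most 0.177 over the alternatives). WT replicates 3 and 4 were the high ones for both genes. The calls of NCU09992, NCU16719 and NCU04910 were each lost without several single libraries, and their highest adjusted p over the alternatives was 0.0917, 0.0942 and 0.117.

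Genes of mating and sexual development held the largest group of called members among the 20 lists of known genes that were counted. Of 22 planned members 21 were found by symbol and 19 were tested, of which 4 were called higher (matA-1, mfa-1, pre-1 and app) and 1 lower (fsd-1), against 3.08% and 1.24% of all tested genes. At an unadjusted p under 0.05 there were 8 of the 19, and the share of all tested genes at that threshold was not counted. The lists were chosen with earlier results of these data known, so these counts are descriptions. The median log2 fold change of the 19 was 0.26, with a range from -1.18 to 3.05, and 14 of the 19 were above 0. Its summed level was 1267 to 1568 CPM in WT and 1287 to 1576 CPM in the deletion strain, a sum made up mostly of abundant members that were not called, such as pp-1 with a WT mean of 256 CPM.

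The gene matA-1 encodes the regulator of mating type A identity. It had 1.14, 3.22, 5.52 and 1.81 CPM in WT and 14.7, 17.1, 20.4 and 12.7 CPM in the deletion strain (log2 fold change 2.45, SE 0.470, adjusted p = 0.00921). The neighbouring mating type genes matA-2 and matA-3 had too few counts to be tested. Over 4 libraries matA-2 had 2 counts in WT and 47 in the deletion strain, in which the libraries held 12, 2, 19 and 14, and the ratio at equal depth was 18.4 with an exact 95% counting interval of 4.83 to 157. For matA-3 there were 8 and 51 counts, a ratio of 5.00 with an interval of 2.36 to 12.2, and 7 of the 8 WT counts came from replicate 3. Counting intervals, here and below, leave out the spread between libraries. The matA genes were thus detected in both strains labelled mat A, and matA-1 was the 1 of them that could be tested. Levels of matA-3 overlapped between the strains.

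Of 4 genes for pheromone precursors and their receptors, mfa-1 and pre-1 were called higher. The gene mfa-1 encodes a pheromone precursor known from strains of the opposite mating type, mat a. It had 2.90, 1.76, 8.18 and 4.83 CPM in WT and 16.0, 27.6, 24.4 and 27.8 CPM in the deletion strain (log2 fold change 2.41, SE 0.381, adjusted p = 0.00295). The gene pre-1, which encodes the receptor that mat A cells use to sense the mat a pheromone, had 3.07, 3.51, 3.83 and 3.26 CPM in WT and 13.8, 12, 10.3 and 10.2 CPM in the deletion strain (log2 fold change 1.76, SE 0.238, adjusted p = 0.00104). Its spread was small in both strains.

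The reciprocal pair, pre-2 and ccg-4, did not pass the test and overlapped. The other receptor gene, pre-2, had 0.175, 0.439, 0.884 and 0.121 CPM in WT and 2.18, 1.32, 0.796 and 0.602 CPM in the deletion strain (log2 fold change 1.49, SE 0.673, adjusted p = 0.298). The mat A pheromone precursor gene ccg-4 varied widely within each strain, with 0, 29.9, 21.5 and 1.21 CPM in WT and 5.88, 38.3, 43.1 and 7.67 CPM in the deletion strain (log2 fold change 0.86, SE 1.10, adjusted p = 0.808). With such a spread a difference was not detectable.

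Of genes known from fruiting bodies, app encodes an abundant perithecial protein. It had 1.14, 0.439, 2.50 and 0 CPM in WT and 18.9, 9.60, 2.14 and 6.17 CPM in the deletion strain, where replicate 3 lay below WT replicate 3 (log2 fold change 3.05, SE 0.791, adjusted p = 0.0459). The call of app was lost without WT replicate 1, 2 or 4 or deletion replicate 1, 2 or 4, at adjusted p up to 0.144. Another gene named from perithecia, poi-2, had 1.14, 3.95, 31.5 and 9.30 CPM in WT and 20.9, 35.7, 10.4 and 15.3 CPM in the deletion strain (adjusted p = 0.743), with overlap.

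The transcription factor gene fsd-1, which acts in female sexual development, went the other way. It had 53.0, 53.7, 37.6 and 35.5 CPM in WT and 17.6, 20.3, 24.9 and 16.5 CPM in the deletion strain (log2 fold change -1.18, SE 0.310, adjusted p = 0.0498). The libraries did not overlap, but the call sat at the threshold and was lost without any 1 of the 8 libraries (adjusted p at most 0.157 over the alternatives).

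In the direct test between the mutants, the 4 sexual genes that rose were each lower in the dim-5 deletion. Its means were 5.60 CPM for matA-1 (adjusted p = 0.0332), 3.73 CPM for mfa-1 (adjusted p = 0.000393), 4.77 CPM for pre-1 (adjusted p = 0.00195) and 0.519 CPM for app (adjusted p = 0.00458). For fsd-1 the dim-5 deletion was higher, with a mean of 73.7 CPM (adjusted p = 0.00116). N3944 is labelled mat x and NKL2 mat A. By these labels alone, loss of dim-5 and any difference in mating type cannot be told apart. Transcripts of matA-1 were counted in each N3944 library, at 5.40, 3.67, 3.28 and 10.1 CPM. Over the N3944 libraries matA-2 had 6 counts and matA-3 had 14, and the mating type of N3944 was not tested. The genes compared here were also picked for their change in the region deletion libraries, which the direct test shares.

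**Figure D3:**
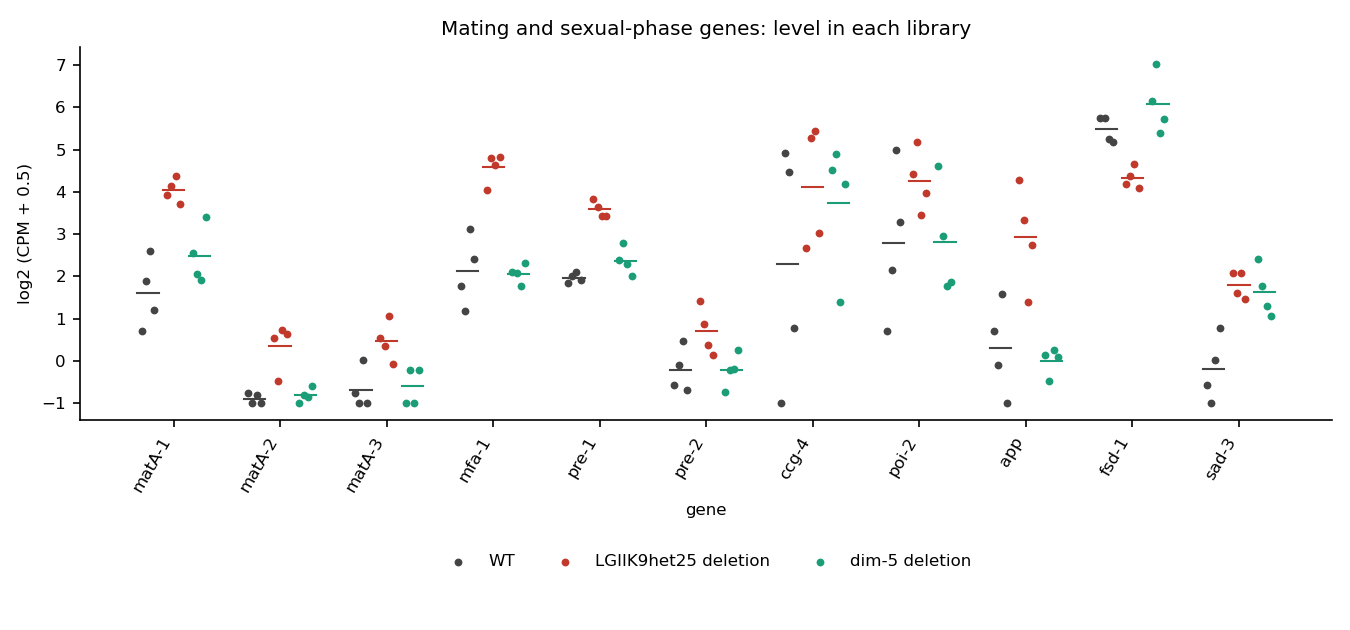
Points are libraries of WT, the LGIIK9het25 deletion and the dim-5 deletion for 10 mating and sexual-phase genes and the meiotic silencing gene sad-3, on a y axis of log2 (CPM + 0.5), with short lines at the mean of the log values. The deletion libraries lie above all WT libraries for matA-1, mfa-1, pre-1 and sad-3, below them for fsd-1, and overlap them for pre-2, ccg-4, poi-2 and app.

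Meiotic silencing is the RNA interference pathway that acts on unpaired DNA in the sexual phase, and its member sad-3 encodes a putative helicase. Its levels were 0.175, 0, 0.516 and 1.21 CPM in WT and 3.71, 2.54, 3.73 and 2.26 CPM in the deletion strain (log2 fold change 2.66, SE 0.653, adjusted p = 0.0360). The call was lost without WT replicate 1, 2 or 3 or deletion replicate 1, 3 or 4, at adjusted p up to 0.0897. It was the 1 called gene of the 8 tested on the RNA silencing list, against 4.32% of all tested genes. The median log2 fold change of that list was 0.14.

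The other meiotic silencing genes had too few counts for the test. Between WT and the deletion strain, sad-1 had 10 and 36 counts (ratio 2.82, counting interval 1.37 to 6.38), sad-2 had 2 and 20 counts (ratio 7.84, interval 1.91 to 69.2) and sms-2 had 3 and 27 counts (ratio 7.06, interval 2.17 to 36.4). These intervals cover counting error only. By library, sad-1 had 14, 15, 3 and 4 counts in the deletion strain and 6, 0, 4 and 0 in WT, so its strains overlapped. The strains also overlapped for sad-2, with 7, 0, 6 and 7 counts in the deletion strain and 1, 0, 1 and 0 in WT. For sms-2 they did not, with 7, 5, 9 and 6 counts against 2, 1, 0 and 0. The quelling genes, which silence repeated DNA in vegetative hyphae, were not called, with qde-2, the Argonaute gene, at means of 103 and 109 CPM (log2 fold change 0.08, adjusted p = 0.846).

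No tested gene of the heterochromatin list was called in the deletion strain. Of 23 planned members 17 were found by symbol and tested, and cdp-6, rid, eed, suz12, ash-1 and npf were not found. Of the 17 genes tested, 0 passed the adjusted threshold and 1 had an unadjusted p under 0.05. With 4.32% of all tested genes called, a list of this size would hold few calls in any case. The list had log2 fold changes from -0.40 to 0.43 and a median of -0.01. The gene hpo, for heterochromatin protein 1, had means of 74.6 CPM in WT and 70.1 CPM in the deletion strain (log2 fold change -0.09, SE 0.155, adjusted p = 0.864). The DNA methyltransferase gene dim-2 had means of 42.7 and 38.4 CPM (log2 fold change -0.15, adjusted p = 0.742). For the linker histone gene hH1 these were 753 and 952 CPM (log2 fold change 0.34, SE 0.125, adjusted p = 0.186). Its libraries did not overlap between the strains, as held for 11.6% of all tested genes.

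One gene related to histone deacetylation did rise. The gene nst-7 belongs to the sirtuin family, whose members remove acetyl groups from proteins, and it was picked after its values were seen. It had 3.77, 2.05, 2.87 and 3.14 CPM in WT and 11.8, 13.8, 10.2 and 9.18 CPM in the deletion strain (log2 fold change 1.90, SE 0.204, adjusted p = 0.000170). In the dim-5 deletion it was higher still, at a mean of 67.0 CPM, a difference of 2.58 on the log2 scale from the region deletion (adjusted p = 1.25e-06). Of the 6 tested genes whose symbols start with nst, it was the 1 called, against 4.32% of all tested genes.

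Single members were called on the phosphate and sugar lists, where 4.32% of all tested genes were called. Of 7 phosphate genes tested, pho-2, which encodes a repressible alkaline phosphatase, rose from 8.16, 4.98, 5.97 and 5.44 CPM in WT to 20.5, 11.7, 30.3 and 35.8 CPM in the deletion strain (log2 fold change 2.00, SE 0.324, adjusted p = 0.00347). None of the other 6 was called. The phosphate permease gene pho-4 had means of 9.11 and 23.6 CPM (log2 fold change 1.38, adjusted p = 0.146). Means of nuc-1, the transcription factor of phosphate acquisition, were 63.5 and 44.3 CPM (log2 fold change -0.52, adjusted p = 0.0598). In the dim-5 deletion the pho-2 mean was 30.4 CPM, and the mutants were not called different (adjusted p = 0.547).

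Among 19 tested genes of sugar use, fermentation and gluconeogenesis, 0 rose and fbp-1 fell. The gene fbp-1 encodes fructose-1,6-bisphosphatase, an enzyme of gluconeogenesis. It had 74.5, 22.5, 306 and 195 CPM in WT and 33.4, 44.1, 22.5 and 16.9 CPM in the deletion strain, with overlap (log2 fold change -2.36, SE 0.600, adjusted p = 0.0426). The call was lost without WT replicate 3 or 4 or any 1 deletion library (adjusted p at most 0.142 over the alternatives).

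The acetate utilisation genes were high in the same WT libraries. The gene acu-3, for isocitrate lyase of the glyoxylate cycle, had 131, 87.6, 401 and 271 CPM in WT and 90.7, 88.9, 77.9 and 94.5 CPM in the deletion strain (log2 fold change -1.34, adjusted p = 0.0684). The malate synthase gene acu-9 had 142, 67.1, 750 and 336 CPM in WT against 112 to 196 CPM (adjusted p = 0.407), and acu-6, for phosphoenolpyruvate carboxykinase, had 168, 123, 1273 and 371 CPM against 169, 61.7, 51.0 and 51.7 CPM (adjusted p = 0.130). Replicate 3 was the highest WT library for fbp-1, acu-3, acu-6 and acu-9, followed by replicate 4. The acetyl-CoA synthetase gene acu-5 overlapped, with 379, 486, 727 and 604 CPM in WT and 432, 513, 744 and 726 CPM in the deletion strain (adjusted p = 0.850).

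Cell wall genes included 1 call among 18 tested, near the 4.32% of all tested genes. The chitin synthase gene chs-6 had 3.16, 1.61, 3.09 and 1.45 CPM in WT and 9.11, 5.41, 7.41 and 9.40 CPM in the deletion strain (log2 fold change 1.72, SE 0.301, adjusted p = 0.00529). The median of the list was -0.12. On the list of cellulose and xylan use, 23 genes were tested and 2 were called, with a median of -0.13. The xylanase gene gh11-2 was called higher at a log2 fold change of 1.61 (adjusted p = 0.0291), and the cellulase family gene gh7-2 was called lower at -1.15 (adjusted p = 0.0365). Both calls were lost without several single libraries, with a highest adjusted p over the alternatives of 0.0959 and 0.116.

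The other 14 lists had no called member among 168 distinct tested genes, against 4.32% of all genes. On the list of conidiation, the forming of asexual spores, 21 genes were tested, with 0 at an unadjusted p under 0.05. Their summed level was 23829 to 30876 CPM in WT and 23159 to 28665 CPM in the deletion strain. That sum was made up mostly of abundant ccg genes, such as ccg-7 and ccg-16 with WT means of 6593 and 5050 CPM. The gene ccg-7 is also on the sugar list, as gpd-1, so the sum is no measure of spores. The conidiation gene con-10 had 88.9, 33.8, 127 and 29.6 CPM in WT and 142, 250, 106 and 47.4 CPM in the deletion strain (adjusted p = 0.403). The spore hydrophobin gene eas ran from 138 to 2100 CPM in WT and from 35.0 to 1056 CPM in the deletion strain (adjusted p = 0.886). No defining conidial marker was thus called in either direction, and the spread within strains was wide.

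The remaining lists without a call were the carotenoid genes (6 tested, median log2 fold change 0.44), clock and light genes (15, median -0.05), heterokaryon incompatibility genes (6, median 0.08) and the quinic acid cluster (7, median -0.03). Nitrogen genes (13, median -0.26), sulfur genes (8, median 0.24) and thiamine genes (2, median -0.30) also had none. The same held for stress genes (18, median 0.27), hyphal fusion and MAK-2 genes (18, median 0.02), G protein and cAMP genes (17, median -0.11) and DNA repair genes (21, median -0.07). At an unadjusted p under 0.05 the largest count among these was 5 of 18 stress genes, whose log2 fold changes ran from -0.41 to 1.16. The share of all tested genes at that threshold was not counted.

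Beyond the lists, called genes with a RefSeq symbol were looked up after the results were seen. Of 1088 tested genes with a symbol, 27 were called, 18 higher and 9 lower, a smaller share than the 4.32% of all tested genes. Among 72 glycoside hydrolase genes, 4 were called higher and 1 lower (6.94%, against the same 4.32%), with a family median of -0.13. The family member gh3-7 went from 2 counts over the WT libraries to 98 over the deletion libraries, which held 22, 26, 34 and 16, or 38.4 times as many at equal depth (counting interval 10.4 to 322, adjusted p = 0.00390). A second member, gh13-2, had 0.614, 0.293, 1.25 and 0.966 CPM in WT and 3.87, 5.52, 5.20 and 4.66 CPM in the deletion strain (log2 fold change 2.56, adjusted p = 0.00529). Its mean in the dim-5 deletion was 0.528 CPM, below the region deletion (adjusted p = 0.000396).

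The anchored cell wall protein gene acw-12 was one of the more abundant transcripts that rose. It had 122, 69.8, 105 and 57.9 CPM in WT and 395, 459, 217 and 222 CPM in the deletion strain (log2 fold change 1.86, SE 0.339, adjusted p = 0.00661). It was the 1 call among 11 acw genes, against 4.32% of all tested genes. Of 50 serine-threonine kinase (stk) genes 2 rose, which were stk-42 (log2 fold change 2.17, adjusted p = 0.00371) and stk-44 (1.95, adjusted p = 0.0111, and 0.0644 without replicate 2 of both strains). The share of 4.00% was near that of all genes. The polyketide synthase gene pks-1 rose from 18.4, 15.2, 11.6 and 14.1 CPM to 38.2, 26.9, 38.1 and 32.9 CPM (log2 fold change 1.20, adjusted p = 0.0498), a call that was lost without any 1 library (adjusted p up to 0.130). Its mean in the dim-5 deletion was 4.24 CPM, lower than in the region deletion (adjusted p = 5.73e-05).

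Among the symbol genes outside the lists, 6 were called lower. The glycerol dehydrogenase gene gcy-1 had 707, 846, 792 and 995 CPM in WT and 459, 384, 373 and 472 CPM in the deletion strain (log2 fold change -0.98, SE 0.146, adjusted p = 0.00192). The gene poli, on linkage group II, had 23.6, 21.5, 33.4 and 26.7 CPM in WT and 13.1, 16.5, 13.1 and 13.5 CPM in the deletion strain (log2 fold change -0.91, SE 0.176, adjusted p = 0.00979). Neither pair of groups overlapped. Smaller falls that were lost under several alternatives were those of scp (-0.82), the copper transporter gene tcu-2 (-0.66), the alternative NADH dehydrogenase gene nde-3 (-0.64) and cdc15 (-0.62), and such rises were those of the aromatic amino acid gene aro-7 (0.68), the pantothenate gene pan-2 (0.87) and the chitinase family gene gh18-8 (2.57).

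Some transcripts went from near absence to a clear signal. By a rule of at most 3 counts over the WT libraries and at least 5 counts in each deletion library, 30 genes qualified, 7 of them with 0 counts in WT. Of these 30, 21 were tested and 19 were called higher, and their totals over the deletion libraries ran from 26 to 207 counts. The rule uses the contrast itself, so these are descriptions. Their linkage groups were I for 7, II for 5, III for 4, IV for 5, V for 4, VI for 0 and VII for 5.

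On linkage group II, NCU09339 went from 2 counts in WT to 40, 52, 43 and 62 counts in the deletion libraries, which is 77.3 times as many at equal depth (counting interval 21.1 to 642). Its total in the dim-5 deletion was 6 counts. NCU03511, on the same linkage group, had 1 count in WT, then 21, 18, 35 and 43 in the deletion libraries, and 8 in the dim-5 deletion in all. Each deletion library held many reads of these genes while the dim-5 deletion libraries together held few.

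Off linkage group II, NCU16632 on III had 2 counts in WT, 105 in the region deletion and 1 in the dim-5 deletion, and NCU08654 on IV had 0, 68 and 2. NCU01462, on V, had 0 counts in WT and 31, 27, 39 and 25 in the deletion libraries, which is at least 31.9-fold higher when WT is set to 3 counts in all 4 libraries together. Others were high in both mutants, such as NCU00932 on I, with 3 counts in WT, 179 in the region deletion and 274 in the dim-5 deletion, and NCU06793 on II, with 0, 50 and 156. These totals are not scaled for depth. Counts in genes per library were 7164944 to 12423603 in WT and 8518301 to 16039760 in the region deletion. In the dim-5 deletion they were 10920478 to 23925695.

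Called genes lay on each of the 7 linkage groups. Linkage group II, from which the region was removed, held 51 calls among 907 tested genes (5.62%), 39 higher (4.30%) and 12 lower (1.32%). Linkage group VII held more for its size, with 57 of 890 (6.40%), 44 higher (4.94%) and 13 lower (1.46%). The other shares were 3.78% on I (80 of 2114), 3.14% on III (34 of 1084), 4.74% on IV (60 of 1265), 3.47% on V (48 of 1382) and 4.34% on VI (37 of 853). The median log2 fold change was between -0.02 and 0.02 on every linkage group. No test was run between linkage groups, since neighbouring genes are not independent. The counts also moved with libraries, to 31 and 33 on II without WT replicates 3 and 4, and on VII to 34 without WT replicate 4 and to 37 and 36 without deletion replicates 3 and 4.

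**Figure D4:**
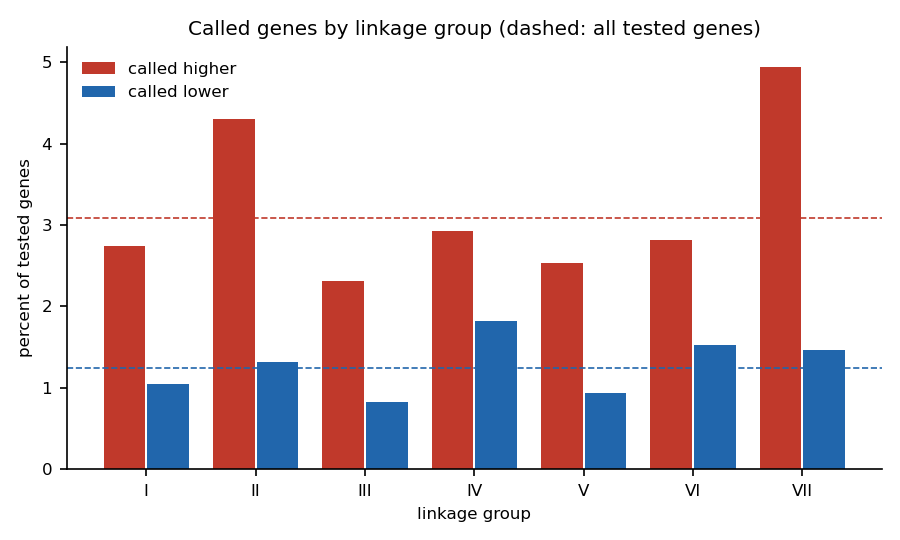
Bars give the percent of tested genes called higher and lower in the deletion strain on each linkage group, and dashed lines give the shares among all tested genes (3.08% and 1.24%). The bars for rises are above the dashed line on II (4.30%) and VII (4.94%).

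Most calls stood alone along the chromosomes. In the order of tested genes in the RefSeq table, 282 called genes had no neighbour called in the same direction, 34 runs were pairs, 3 runs had 3 genes and 2 runs had 4. The 5 runs of 3 or more held 17 genes, which were all higher in the deletion strain and without overlap between the strains. Counting ignored strand, so reads of a long transcript can be credited to its neighbours. The number of such runs was 3 without WT replicate 1 or 3 or deletion replicate 2 or 3, 2 without WT replicate 2 or deletion replicate 1 or 4, and 1 without WT replicate 4.

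Of the runs, 2 lay on linkage group II. In one, NCU03478 had 0.790, 0.293, 1.33 and 0.483 CPM in WT and 9.35, 4.96, 2.26 and 4.51 CPM in the deletion strain (log2 fold change 2.77, adjusted p = 0.00595). Its neighbours NCU03477 and NCU03476 had log2 fold changes of 2.72 and 2.00 (adjusted p = 0.00193 and 0.0136). NCU03478, NCU03477 and NCU03476 were also called higher than WT in the dim-5 deletion (adjusted p = 0.00720, 0.00295 and 0.00179). The next genes on one side, NCU03475 and NCU03474, had values of 2.52 and 1.76 that missed the threshold (adjusted p = 0.173 and 0.223), whereas NCU03479 and NCU03480 on the other side were at 0.14 and 0.13. The rise thus ended sharply on one side.

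In the other run on linkage group II, NCU05356 had the highest level, with 2.28, 5.56, 4.79 and 0.483 CPM in WT and 27.9, 16.7, 11.9 and 13.8 CPM in the deletion strain (log2 fold change 2.42, adjusted p = 0.0365). NCU11331, NCU05354 and NCU05358 had log2 fold changes of 2.53, 2.80 and 3.02 (adjusted p = 0.0365, 0.0105 and 0.00143). The flanking gene NCU05360 was at -0.13. On the other side NCU05351 and NCU05350 were at 2.29 and 1.40 and missed the threshold (adjusted p = 0.110 and 0.176). Between the mutants NCU05358 alone of these 4 was called, lower in the dim-5 deletion (means of 1.83 and 5.87 CPM, adjusted p = 0.00897). Against WT, NCU05354 and NCU05356 were called higher in the dim-5 deletion (adjusted p = 0.0186 and 0.0415). NCU11331 and NCU05358 were not (adjusted p = 0.141 and 0.0510).

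The run on linkage group IV began with NCU08839, at 7.37, 3.07, 2.06 and 5.32 CPM in WT and 37.1, 33.7, 26.1 and 29.9 CPM in the deletion strain (log2 fold change 2.83, SE 0.346, adjusted p = 0.000439). NCU08838 and NCU08835 followed at much lower levels, with deletion means of 1.45 and 3.55 CPM and log2 fold changes of 3.22 and 3.68 (adjusted p = 0.0375 and 0.0177). Beyond them, NCU08832 was at 2.48 and missed the threshold (adjusted p = 0.110), and NCU08830 was called at 3.71 (adjusted p = 0.0153), while NCU08840 on the other side was at 0.07. The 3 genes of the run were lower in the dim-5 deletion than in the region deletion (adjusted p = 0.0338, 0.0175 and 0.0223). Against WT, NCU08839 was called higher in the dim-5 deletion (adjusted p = 0.00352). NCU08838 and NCU08835 were not (adjusted p = 0.803 and 0.395).

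Linkage group VII held the remaining runs. In one, NCU06163, NCU17202, NCU17203 and NCU06160 had WT means of 0.203, 0.0668, 0.0670 and 0 CPM and deletion means of 2.47, 1.46, 3.89 and 1.64 CPM (adjusted p = 0.0426, 0.00776, 0.0180 and 0.00975). NCU17203 had 3 counts in WT and 26, 30, 86 and 65 in the deletion libraries, which is 54.1 times as many at equal depth (counting interval 18.3 to 265). NCU06160 had 0 counts in WT and 80 in the deletion strain, at least 20.9-fold higher by the same floor. In the other, acw-12 stood between NCU08170 and NCU08172, whose log2 fold changes were 2.28 and 1.50 (adjusted p = 0.0120 and 0.0365). In these 2 runs no gene was called between the mutants. Each of their genes was also called higher than WT in the dim-5 deletion except NCU08172 (adjusted p = 0.0511).

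**Figure D5:**
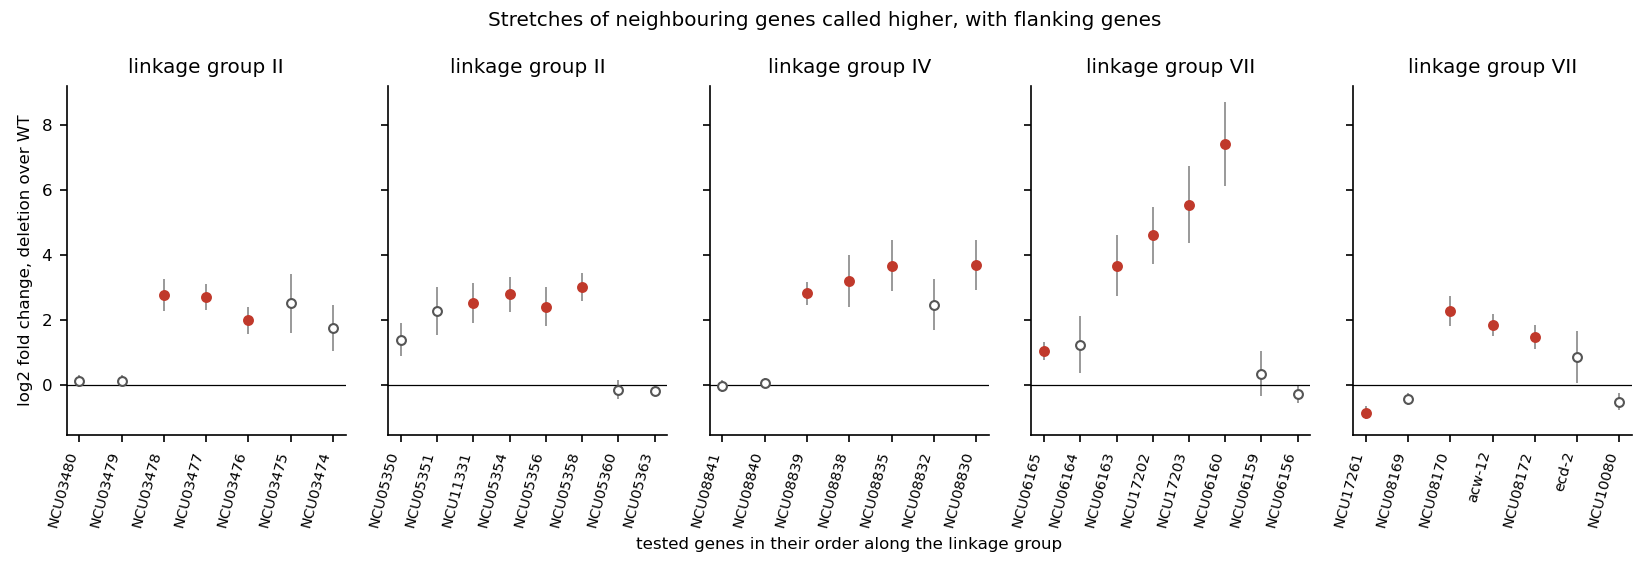
Each panel is 1 run of at least 3 neighbouring genes called higher, with the next 2 tested genes on each side, in their order along the linkage group (x axis, not to scale), and points give the fitted log2 fold change, deletion over WT, with its SE. Filled points are called and open points are not, and the values drop to near 0 beside the run on at least 1 side in the first 3 panels, where the genes next to it were at 0.14, -0.13 and 0.07. The fitted value of NCU06160, at 7.43, is against 0 counts in WT and is no bound.

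Over all calls, the region deletion was compared directly with the loss of DIM-5, whether or not the dim-5 deletion also differed from WT. Of the 262 rises in the region deletion, 116 were called lower in the dim-5 deletion than in the region deletion, 20 were called higher and 126 were not called. Of the 105 falls, 57 were called higher in the dim-5 deletion, 4 lower and 44 not called. Calls in this comparison make up 16.7% of all tested genes. Genes chosen for a high value in the region deletion are more likely to be lower in any other strain, so these counts describe the called genes and do not test a difference between the groups of genes. The comparisons share the region deletion libraries.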

How the data were processed

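For each library the authors deposited raw counts of reads per gene, in 1 table. The submitters' processing notes name HISAT2, HTSeq and DESeq2, and the names of the tables mark the counting as unstranded although the kit was directional. Tool versions, genome build and annotation, not given in the sources used here, limit the match to other data. Values of overlapping, antisense and neighbouring genes and of near-identical copies are therefore uncertain. Each table lists 9730 genes, of which 9729 matched the RefSeq gene table of assembly NC12, used for symbols and gene order. The 5 closing entries of a table, which name no gene, stayed out of totals and tests. In WT and deletion libraries reads outside genes took 5.17% to 36.8%, ambiguous reads 1.78% to 2.91%, unaligned reads 6.81% to 12.7% and reads at several places 0.0804% to 0.234%.

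CPM were computed from the deposited counts with TMM-scaled totals. The 8496 genes that filterByExpr kept were fitted with edgeR 4.0.16 in R 4.3.3 (glmQLFit, glmQLFTest), 1 mean per strain, all 12 libraries in 1 fit and 9 residual degrees of freedom. P values are two-sided with Benjamini-Hochberg adjustment over all tested genes, and called means an adjusted p under 0.05. SE is the log2 fold change over the square root of F. Counting intervals are exact 95% intervals on counts pooled over the libraries of a strain, and leave out the spread between libraries. The fit was tested on simulated data. Every pair of libraries of a strain differed by more than sampling noise (chi-square per degree of freedom at least 20.1).

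Members and lists were chosen with earlier results of these data known. Named genes were the 15 largest rises and 10 largest falls with a mean of at least 5 CPM and no overlap between the strains, called genes of the symbol lists, runs of at least 3 neighbouring called genes and the mating type A genes; other called genes with symbols were added after their values were seen. Lists by product text were planned and not analysed, as the gene table used here holds none. Alternatives used DESeq2 1.42.0, limma-voom (limma 3.58.1), other scalings and filters, a covariate, a replicate block, thinning, and libraries left out.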

Additional observations from a re-analysis of the deposited data

Results flagged for a closer look

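Within each group of 4 libraries, Dixon's test at its 95% critical value was used to single out a library that stood apart from the rest. By chance about 1 in 20 groups would be singled out, or 0.600 of the 12 groups of library measures and 6.40 of the 128 groups of gene levels, where 1 and 4 were found. Of the 5 values, 4 belong to replicate 2 of the deletion strain. Reads at several places took 0.234% of that library, against 0.0964% to 0.119% of the other deletion libraries. NCU01496 was at 21.4 CPM there against 50.4 to 55.5, NCU04910 at 161 CPM against 79.5 to 89.1, and poli at 16.5 CPM against 13.1 to 13.5. For acu-6, deletion replicate 1 was at 169 CPM, against 51.0 to 61.7 CPM in the others.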

How the results depend on the processing

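Under 21 alternatives, 20 of them planned and thinning added after the data had been seen, the 367 calls (262 higher, 105 lower; 301 at least 2-fold, 243 higher and 58 lower) moved with the tool, the filter, the threshold and the libraries kept. DESeq2 called 617 (396 and 221; 91 falls at least 2-fold). A filter at a mean of 5 CPM, which tests fewer genes, left 196 (130 and 66; 157 at least 2-fold, 39 of them lower). An adjusted p under 0.01 left 154 (131 and 23; 147 at least 2-fold, 130 and 17). With 1 library left out, there were 216 to 361 calls, 177 to 256 rises and 33 to 119 falls, and at least 2-fold 203 to 317 calls, 175 to 247 rises and 24 to 77 falls. Without replicate 2 of both strains there were 305 calls, 169 rises and 136 falls, with 263, 165 and 98 at least 2-fold. The sexual development list had 3 to 4 rises in these, and 5 with no filter on low counts. Rises were 71.4% of calls, 85.1% at an adjusted p under 0.01, 64.2% with DESeq2, 77.5% with upper-quartile scaling and 55.4% without replicate 2 of both strains. Limma-voom called 306 genes, RLE scaling 363, library totals alone 341, no filter 371, a fit of the 8 libraries alone 326, a covariate for reads outside genes 358 and thinned libraries 331. Runs of at least 3 neighbouring called genes numbered 10 with DESeq2 and 0 with the 5 CPM filter or an adjusted p under 0.01. The replicate block gave 371 calls (265 and 106) and kept 307 of the 367, and the deviations of same-numbered libraries correlated at r = 0.518, -0.203, 0.059 and 0.168. Not every pair exceeded 0.1, so the numbers were not taken to pair the libraries, although libraries 1 correlated best with each other and the share of reads outside genes had the same order by number in both strains. WT replicate 3 correlated best with deletion replicate 2 (0.394). Replicate numbers follow the sample titles throughout, and the numbers in the names of some count tables differ from them. Of 52 called named genes, 29 kept their call in every alternative that tested them, among them matA-1, mfa-1, pre-1, pho-2, chs-6, nst-7, acw-12, gcy-1, NCU00995 and NCU01496. Signs turned for acu-5 (-0.00 without WT replicate 1, range with 1 library left out -0.00 to 0.30), hex-1 (0.03 without WT replicate 1, 0.10 without deletion replicate 2, 0.09 without both replicates 2, range -0.30 to 0.10) and eas (0.48 without WT replicate 3, range -1.15 to 0.48), and none of these was called. The causes were not tested. Depth limits what can be said of genes with a few counts per library.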
